A study of Homo sapiens with 24 samples.

Results

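The effect of TAOK2 knockdown on the cytoplasmic polyadenylated RNA of A549 cells was measured in 4 libraries of the 24 in the series. A549 is a human lung adenocarcinoma line and its genotype is labelled WT in all libraries. In both groups cells were reverse transfected with Lipofectamine RNAiMAX and 30 nM of siRNA: an OnTarget Plus SMARTpool against TAOK2 in one group and a non-targeting siCON pool in the other. Each group has 2 cytoplasmic libraries, 1 from batch 1 and 1 from batch 2, and every change below is the difference within a batch or its mean over both. Nuclear and total RNA were measured for the same siRNAs and batch numbers, with 2 libraries per group each. A separate whole-cell experiment had 3 libraries per siRNA. Values are gene-level TPM, transcript abundances scaled to 1000000 per library, so a value is a proportion of that sum, and the depth behind it is unknown beyond the stated minimum of 100000000 reads per library. With bulk TPM, fewer cells that express a gene and less RNA per cell cannot be told apart. Nothing in the labels ties the batches to separately grown cultures, so p-values measure the spread between libraries, which may be technical. In the fractionation experiment that spread was pooled over all 12 cytoplasmic, nuclear and total libraries. Fractions of the same siRNA and batch number entered as independent, which the labels do not establish.

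TAOK2 is a kinase of the TAO family, which signals upstream of the stress-activated p38 and JNK cascades and acts on the cytoskeleton. Cytoplasmic RNA is the pool that ribosomes can translate. Genes named below include targets of 2 well-studied programmes. ATF4 and CHOP carry the integrated stress response, which raises enzymes of amino acid synthesis and aminoacyl-tRNA synthetases when amino acids run short. NF-kB raises chemokines that attract neutrophils and monocytes.

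TAOK2 (ENSG00000149930, GRCh38 chr16:29973641-29992261, forward strand), the targeted gene, was lower in both batches. Control siRNA libraries held 7.63 and 3.37 TPM in batches 1 and 2, and TAOK2 siRNA libraries held 2.41 and 0.728. The groups did not overlap, but both groups were lower in batch 2. The log2(TPM + 1) change was -1.34 in each batch. At such low levels the added 1 TPM shrinks the change, and the equal values of both batches depend on it. With limma the mean change of -1.34 ± 0.20 (SE) had an adjusted p of 0.0128 with batch as a block and of 0.565 without it. In nuclear and total RNA TAOK2 changed by -0.57 and -0.89 and did not pass, also with batch as a block. In the whole-cell experiment it changed by -1.75 and passed without a batch term. Nearly all of this RNA came from the protein-coding transcripts ENST00000279394 (4.22 and 1.86 against 1.29 and 0.384 TPM) and ENST00000308893 (3.31 and 1.49 against 1.02 and 0.344). The paralogs TAOK1 (25.3 and 29.8 against 19.0 and 30.9 TPM) and TAOK3 (12.1 and 15.2 against 10.9 and 13.2) did not pass.

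In composition the cytoplasmic libraries differed from the nuclear ones. Ribosomal protein mRNAs summed to 198822 to 207322 TPM in the cytoplasmic libraries and to 39254 to 50247 in the nuclear ones, and a list of genes known for detained introns summed to 1191 to 1564 against 4991 to 7708. Transcripts annotated as retained introns held 3.53% to 3.92% of cytoplasmic TPM and 7.35% to 9.75% of nuclear TPM. Mitochondrially encoded mRNAs held 8.10% to 13.9% of cytoplasmic and 36.5% to 42.5% of nuclear TPM. As TPM are proportions, this larger share lowers other nuclear values, those of ribosomal protein mRNAs among them. Of 15 nuclear-retained noncoding RNAs chosen as a check, 0 were measured. The TAOK2 siRNA library of batch 1 stood apart: transcripts longer than 3000 bases held 10.2% of its TPM and 12.3% to 12.9% in the other 3 cytoplasmic libraries. The label of lung epithelium was met in part. The general epithelial keratin KRT18 was at 943 to 1759 TPM, and of the alveolar and airway markers CAV1 was at 171 to 220, MUC5B at 33.8 to 204, ABCA3 at 6.92 to 14.4 and SFTPD at 3.88 to 10.7 TPM. NKX2-1 did not exceed 0.0979 and SFTPC 0.373 TPM.

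Sequences upstream of RefSeq starts of genes that moved are shown first, because genes of 2 groups share short motifs there. A gene can have several starts, and the stretches of ASNS, GARS1, CEBPG, IARS1, CXCL2, CXCL3 and CXCL5 lie inside the full annotated span of the gene, downstream of its outermost start. They come from RefSeq promoters (GRCh38.p14), written 5′ to 3′ on the strand of the gene, with the motif in capitals. Both strands of the 250 bases before each start were searched for TGATGNAA, the core of the amino acid response element, and it was present in 3.89% of 27305 genes of that table. Of matched genes that fell, 9 of 145 (6.21%) held the motif, and of those that rose, 3 of 161 (1.86%), beside 2.40% of matched genes tested. These 5 genes, whose RNA fell, carry it (chr7:97872458-97872487, chr16:70289675-70289704, chr7:30594834-30594863, chr19:33374060-33374089 and chr9:92293698-92293721, in order):
ASNS: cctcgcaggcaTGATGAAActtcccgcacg
AARS1: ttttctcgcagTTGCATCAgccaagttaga
GARS1: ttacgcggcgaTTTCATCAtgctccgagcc
CEBPG: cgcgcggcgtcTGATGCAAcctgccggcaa
IARS1: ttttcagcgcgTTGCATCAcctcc
The NF-kB motif GGAATTTCC, searched the same way, was present in 0.502% of the genes. Of matched genes that rose, 8 of 161 (4.97%) held the motif, and of those that fell, 1 of 145 (0.690%), beside 0.516% of matched genes tested. These 6 genes, whose RNA rose, carry it (chr4:73740468-73740496, chr4:73869305-73869333, chr4:74099254-74099282, chr4:74038749-74038777, chr4:73998749-73998777 and chr14:35404812-35404840, in order):
CXCL8: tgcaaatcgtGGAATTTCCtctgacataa
CXCL1: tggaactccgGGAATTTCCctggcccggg
CXCL2: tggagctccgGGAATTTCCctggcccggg
CXCL3: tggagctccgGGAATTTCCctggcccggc
CXCL5: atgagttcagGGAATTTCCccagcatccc
NFKBIA: tgactggcttGGAAATTCCccgagcctga
The forward match lies in the 5 chemokine genes and the reverse complement in NFKBIA. CXCL1, CXCL2 and CXCL3, neighbouring paralogs, share most of the bases around it.

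Over 13751 genes that averaged 1 TPM or more, limma without a batch term passed 0 genes at an adjusted p of 0.05 (0% called), with a smallest adjusted p of 0.0642. At an unadjusted p of 0.05, 363 genes were higher and 570 lower. The libraries pair by their labelled batch, and with batch as a block limma passed 404 genes (2.94%), 205 higher (1.49%) and 199 lower (1.45%), all 404 with the same sign in both batches. Below, rose and fell are used only of genes or transcripts that passed in cytoplasmic RNA with batch as a block. Among these, 43 were at least 2-fold higher and 40 at least 2-fold lower. The count moved with single libraries: 26 genes passed without the control library of batch 1, 7 without that of batch 2, 362 without the TAOK2 siRNA library of batch 1 and 1464 without that of batch 2. Of 67 named genes that passed, all 67 kept their sign in each of these fits. As all 404 already had the same sign in both batches, this was largely fixed in advance and is no measure of stability.

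Irrespective of any test, 3027 genes (22%) were higher and 5128 (37.3%) lower in both batches, with a median change of -0.11 in batch 1 and -0.02 in batch 2. At least 2-fold higher in both batches were 31 genes (0.225%), and 31 (0.225%) were at least 2-fold lower. Groups did not overlap for 1302 genes (9.47%) that were higher and 2564 (18.6%) that were lower. Across 9405 genes averaging 5 TPM or more in the cytoplasm, the changes of both batches correlated at r = 0.381, a description over genes, which are not independent replicates.

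**Figure D1:**
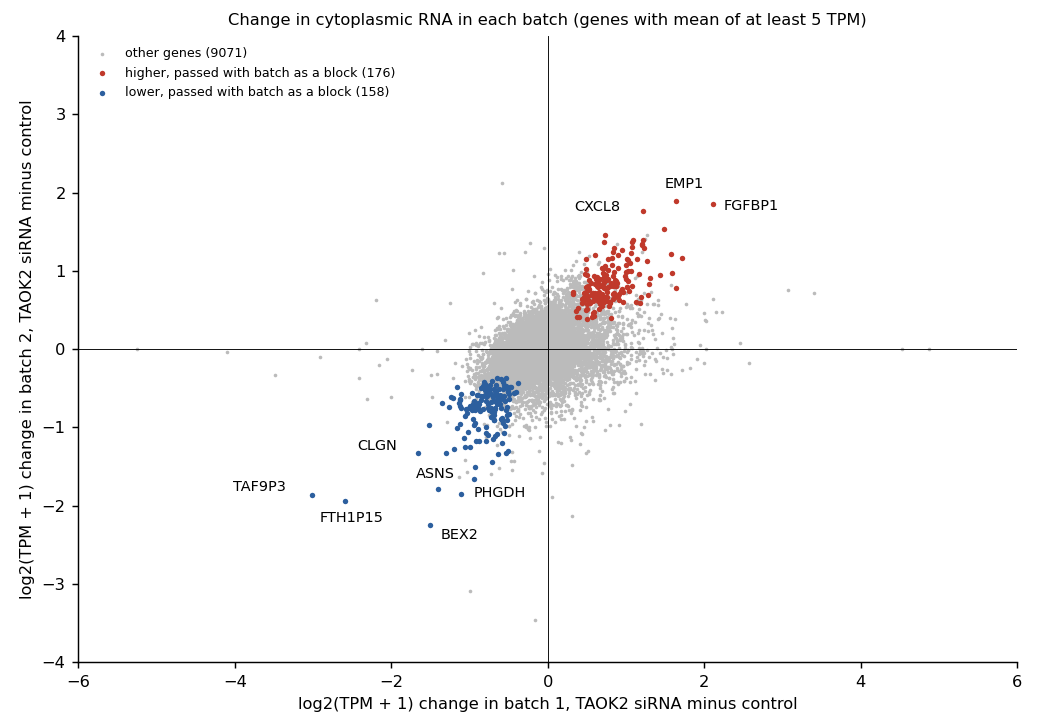
Change in log2(TPM + 1), TAOK2 siRNA minus control siRNA, in batch 1 (x axis) and batch 2 (y axis) for the 9405 genes averaging 5 TPM or more in cytoplasmic RNA. Red and blue points are the 176 higher and 158 lower genes that passed limma with batch as a block, and all of them lie in the quadrants of equal sign.

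Among genes that rose, FGFBP1 had the largest mean change. FGFBP1 (chr4:15935569-15938740, reverse strand), which releases fibroblast growth factors from the matrix, held 5.50 and 7.39 TPM in controls and 27.1 and 29.2 TPM after knockdown. Both knockdown libraries were more than 3-fold above both controls, and the log2 change was 1.98 ± 0.16 (adjusted p = 0.00261 by limma with batch as a block, 0.067 without). STC1, a secreted glycoprotein hormone, held 15.1 and 17.0 against 44.2 and 50.9 TPM (1.51 ± 0.13). IGFBP6, a binding protein of insulin-like growth factors, held 55.6 and 37.7 against 139 and 71.8 TPM (1.11 ± 0.19). The Wnt inhibitor DKK1 went the other way, from 1347 and 1692 to 723 and 1027 TPM (-0.81 ± 0.10). These 4 were the members that passed among 29 measured growth factors and secreted regulators. Their shares were 10.3% higher and 3.45% lower, beside 1.49% and 1.45% of all genes. The median change of the list was -0.02 beside -0.06 over all genes. RSPO3, HBEGF, AREG and TGFA did not pass.

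Of the other named rises, EMP1, an epithelial membrane protein, held 5.90 and 7.67 against 20.4 and 31.3 TPM (1.76 ± 0.15). TRIM29, a tripartite motif protein of basal epithelia, held 6.25 and 6.04 against 20.5 and 15.4 TPM (1.39 ± 0.19). In both genes the groups were far apart relative to the spread within a group. LUM, the matrix proteoglycan lumican, held 15.3 and 16.7 against 36.4 and 43.9 TPM (1.27 ± 0.12). LUM is a fibroblast marker, and the summed level of the 18 fibroblast and endothelial markers, most of it LUM, was 22.0 and 23.5 against 46.3 and 54.0 TPM, while COL1A2, COL3A1, PDGFRA, PDGFRB and FAP were at or below 0.333 TPM in all 4 libraries. Of the 6 measured members 4 were higher (66.7%, beside 22% of all genes) and 0 lower in both batches. THY1 held 2.70 and 3.06 against 4.08 and 4.60 TPM, DCN 0.633 and 0.975 against 1.06 and 1.98, and COL1A1 1.33 and 1.19 against 2.21 and 1.61, and these 3 did not pass. The part of other cells in this rise was not tested. ZNF219, PCGF2 and PPDPF, also named by the size of their change, did not pass, and each was lower in batch 2 within both siRNA groups. ZNF219 held 6.28 and 2.07 against 16.6 and 7.4 TPM, PCGF2 6.44 and 0.165 against 16.6 and 2.08, and PPDPF 33.0 and 1.34 against 77.3 and 4.54.

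Chemokine genes rose as a group of few. CXCL8 (chr4:73740506-73743716, forward strand), which encodes the neutrophil attractant interleukin-8, held 5.91 and 8.80 TPM in controls and 15.1 and 32.3 after knockdown. Its log2 change was 1.49 ± 0.19 (adjusted p = 0.00912 with batch as a block, 0.384 without). CXCL1 held 14.3 and 14.4 against 31.6 and 39.5 TPM (1.24 ± 0.12), and CXCL5, the most abundant, held 384 and 470 against 634 and 1215 (1.05 ± 0.17). For these 3 genes, which act on the same neutrophil receptor family, both knockdown libraries lay above both controls. CXCL3 (5.87 and 6.05 against 11.4 and 10.2 TPM), CXCL2 (5.49 and 5.10 against 8.34 and 10.2), the monocyte attractant CCL2 (16.8 and 23.1 against 28.3 and 48.3) and the NF-kB inhibitor NFKBIA (35.9 and 43.6 against 53.6 and 58.2) also rose. Of 24 measured members of the list of chemokines, cytokines and NF-kB genes, 7 passed higher (29.2%, beside 1.49% of all genes) and 0 lower. The median over the list was 0.16. The NF-kB subunits NFKB1, NFKB2, REL, RELA and RELB and the cytokines LIF, IL11 and IL18 did not pass. The NF-kB motif shown above was in 6 of the 6 risers that matched the promoter table and in 2 of 12 matched members that did not pass, NFKB1 and REL. Only these exact letters were searched, and most of the matched risers are related CXC genes. The list was chosen with earlier results known, so this contrast is a description and no test. Leukocyte markers summed to 65.0 and 47.5 TPM in controls and 115 and 54.8 after knockdown, of which LYZ gave 20.5 and 10.4 against 38.4 and 18.9 (0.84 ± 0.14) and CD68 31.1 and 23.0 against 63.5 and 26.4. CD14 held 9.97 and 8.88 against 8.83 and 6.495 TPM and did not pass, and of the 4 measured members 2 were higher and 2 lower in both batches. CD3E, MS4A1 and FCGR3A were at 0 and PTPRC at or below 0.750 TPM in the 4 libraries. Whether other cells contribute to the chemokine RNA was not tested.

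The amino acid and integrated stress response genes were the list with the lowest median. All 44 members were measured, and 35 were lower (79.5%, beside 37.3% of all genes) and 1 higher in both batches. In this list 20 fell (45.5%, beside 1.45% of all genes) and 0 rose. The median change was -0.71 (-0.58 in batch 1 and -0.78 in batch 2) beside -0.06 over all genes. ASNS (chr7:97852118-97872542, reverse strand), which makes asparagine, held 172 and 214 TPM in controls and 64.3 and 61.3 after knockdown (-1.60 ± 0.16, adjusted p = 0.00302 with batch as a block and 0.0642 without). Among regulators, DDIT3, which encodes CHOP, held 52.4 and 69.9 against 22.3 and 28.2 TPM (-1.24 ± 0.13). TRIB3, a feedback inhibitor, held 118 and 91.0 against 78.7 and 39.1 TPM, and the bZIP genes CEBPG and CEBPB also fell (-0.86 ± 0.11 and -0.74 ± 0.14). ATF4 itself held 490 and 453 against 415 and 222 TPM and did not pass (adjusted p = 0.162 with batch as a block).

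Enzymes of serine and one-carbon metabolism were lower in the same list. PHGDH, the first enzyme of serine synthesis, held 136 and 188 against 62.5 and 51.4 TPM (-1.48 ± 0.23), and PSAT1, the next, 200 and 224 against 115 and 98.6 (-0.98 ± 0.14). The mitochondrial folate enzymes ALDH1L2 (13.1 and 13.3 against 4.72 and 4.71 TPM) and MTHFD2 (365 and 404 against 196 and 199) fell too. PSPH and SHMT2, which act beside them, changed by -0.33 and -0.30 and did not pass. Synthetases that load tRNAs fell together: AARS1 went from 118 and 118 to 56.1 and 49.0 TPM (-1.15 ± 0.14), and MARS1, CARS1, IARS1, GARS1, WARS1, NARS1 and SARS1 fell by 0.65 to 1.04 on the log2 scale. EPRS1 changed by -0.68 and did not pass. XPOT, which exports tRNA from the nucleus, fell by 0.90. The amino acid transporters differed, with SLC7A1 lower (28.7 and 20.0 against 18.7 and 10.3 TPM) and SLC7A5, SLC38A2 and SLC3A2 not passing. TGATGNAA was in 5 of 19 fallers that matched the promoter table and in 4 of 18 matched members that did not pass.

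**Figure D2:**
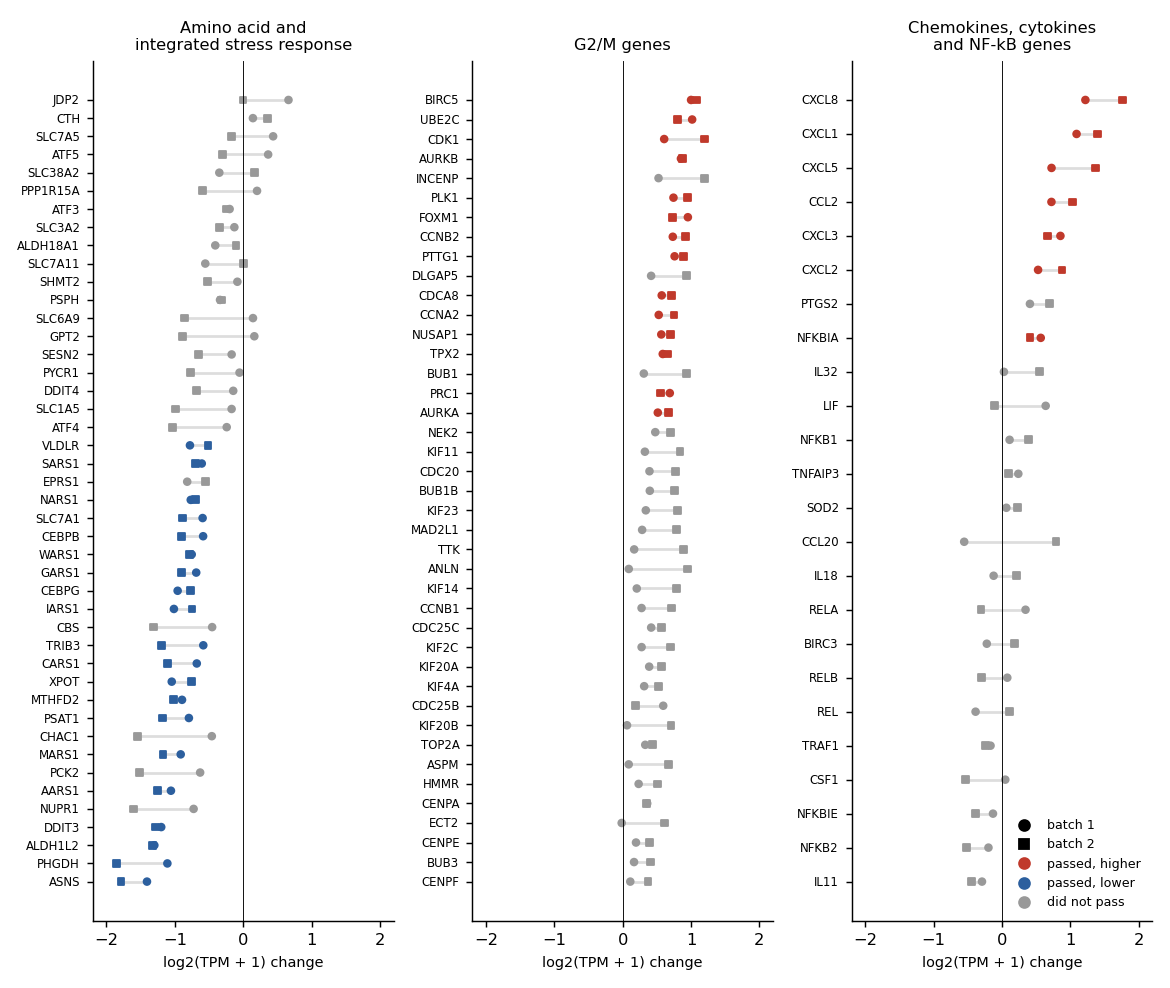
Change in log2(TPM + 1), TAOK2 siRNA minus control siRNA, of each member of 3 gene lists in cytoplasmic RNA, with circles for batch 1 and squares for batch 2. Of the stress response genes 20 of 44 fell, of the G2/M genes 14 of 41 rose and of the chemokine and NF-kB genes 7 of 24 rose, marked by colour. Over all genes 1.49% rose and 1.45% fell.

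Other falls lay outside that list. BEX2 (chrX:103309346-103311046, reverse strand), a small brain-expressed adaptor protein gene, held 38.3 and 29.5 TPM in controls and 12.8 and 5.41 after knockdown (-1.88 ± 0.25, adjusted p = 0.00935 with batch as a block and 0.132 without). Its neighbour in the family BEX4 went from 5.05 and 5.98 to 2.25 and 2.43 TPM (-0.96 ± 0.15), whereas BEX3 (264 and 214 against 346 and 218) and 5 TCEAL genes did not pass. CLGN, a chaperone of the endoplasmic reticulum, held 70.1 and 80.5 against 21.6 and 31.4 TPM (-1.49 ± 0.12). TXNIP, which binds thioredoxin and limits glucose uptake, held 52.1 and 54.9 against 24.4 and 24.5 TPM (-1.10 ± 0.11), with little spread within either group. Its relative ARRDC4, chosen after its values were seen, held 19.8 and 21 against 9.84 and 10.3 TPM. The TXNIP promoter holds 1 match to the carbohydrate response element motif, searched on both strands and shown in capitals, which was in 16 of the 27305 genes, at chr1:145996621-145996697:
TXNIP: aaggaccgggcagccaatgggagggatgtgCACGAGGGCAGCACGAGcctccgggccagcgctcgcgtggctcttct
FTH1P15 (21.6 and 11.1 against 2.76 and 2.15 TPM) and TAF9P3 (20.6 and 7.12 against 1.67 and 1.23) showed larger falls than BEX2, but they are processed pseudogenes that share reads with their parent genes, so their levels are uncertain. C1orf53 and the pseudogene SUGT1P4 were named by size and did not pass.

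**Figure D3:**
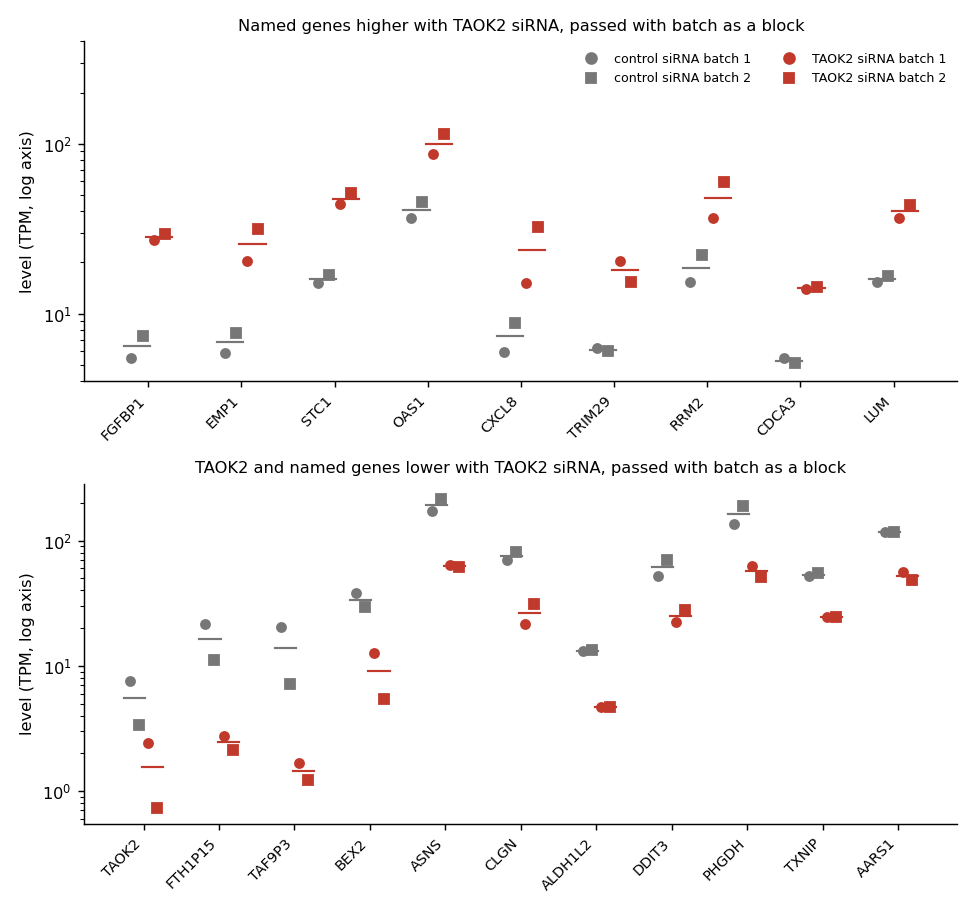
Level in TPM on a log axis of named genes that passed with batch as a block, and of TAOK2, in the 2 control siRNA (grey) and 2 TAOK2 siRNA (red) cytoplasmic libraries, with circles for batch 1, squares for batch 2 and a line at the mean of each group. In each gene plotted both knockdown libraries lie on the same side of both controls. Genes other than TAOK2 were chosen for large changes in both batches, so this largely follows from their choice. Of all genes, 9.47% were higher and 18.6% lower without overlap.

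Cell division genes were higher. Of 41 G2/M genes, 40 were higher in both batches (97.6%, beside 22% of all genes) and 0 lower. In this list 14 rose (34.1%, beside 1.49% of all genes), and the median change was 0.58 (0.39 and 0.72 in batches 1 and 2). The mitotic kinases PLK1 (15.2 and 11.4 against 26.2 and 22.9 TPM), AURKB (15.9 and 16.2 against 29.5 and 30.6) and CDK1 (41.4 and 67.0 against 63.6 and 155) rose, as did BIRC5, a subunit of the chromosomal passenger complex (18.9 and 15.2 against 38.9 and 33.2 TPM, 1.04 ± 0.18). The groups of CDK1 overlapped, because both of its batch 2 libraries were higher than their batch 1 counterparts. CDCA3, a trigger of mitotic entry, held 5.45 and 5.12 against 13.9 and 14.3 TPM (1.27 ± 0.17). Of 47 DNA replication genes, 36 were higher (76.6%) and 1 lower in both batches, 9 rose (19.1%), and the median was 0.46. The nucleotide enzymes RRM2 (15.3 and 22.1 against 36.7 and 59.7 TPM, 1.30 ± 0.15) and TK1 (25.2 and 13.0 against 85.2 and 30.4, 1.44 ± 0.24) were among the largest. Replication licensing and fork genes CDC6, CDC45, ORC1, GINS1, GINS2 and FEN1 rose by less than that of TK1, and the MCM helicase genes MCM2 to MCM7 did not pass. The E2F motif TTTNGCGC, in 1.84% of genes of the promoter table, was in 0 of 8 matched risers and in 11 of 31 matched members that did not pass.

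Sterol and cytoskeleton genes made up other groups of rises. Of 30 cholesterol synthesis genes and SREBP targets, 10 rose (33.3%, beside 1.49% of all genes) and 0 fell, with a median of 0.55. The sterol isomerase EBP held 54.1 and 47.8 against 111 and 96.1 TPM (1.01 ± 0.11), DHCR7, the last enzyme of the pathway, 43.3 and 34.5 against 87.7 and 64.9, and FDPS 97.4 and 109 against 160 and 192. The transcription factors SREBF1 and SREBF2 changed by -0.26 and -0.08 and did not pass. The SREBP motif TCACNCCAC, in 1.09% of genes of the promoter table, was in 0 of 7 matched risers and 1 of 16 other matched members. Of 31 actin and tubulin genes, 10 rose (32.3%) and 0 fell, with a median of 0.38. They included the tubulins TUBA1B (322 and 378 against 578 and 752 TPM, 0.92 ± 0.08), TUBA1A, TUBA1C, TUBA4A and TUBB, the tubulin-binding STMN1 (110 and 141 against 178 and 289) and the tropomyosins TPM3 and TPM4, while ACTB and ACTG1 did not pass.

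Interferon-stimulated genes were mostly higher, and 18 of 28 measured members (64.3%) were higher in both batches, beside 22% of all genes. OAS1, a sensor of double-stranded RNA, held 36.3 and 45.6 against 86.4 and 114 TPM (1.26 ± 0.19), and OAS3 and IFI44 also rose. These were the 3 rises of the list (10.7%, beside 1.49% of all genes), and its median was 0.34. IFI27 (0.471 and 0.639 against 7.62 and 4.0 TPM) had the largest change of the list, 2.08 ± 0.64, and did not pass. GPX2, a glutathione peroxidase, rose from 1223 and 1672 to 2567 and 3331 TPM (1.03 ± 0.10). The heme oxygenase HMOX1 fell from 156 and 141 to 104 and 73.1 TPM. The NRF2 list had 2 rises (6.06%, beside 1.49% of all genes) and 1 fall (3.03%, beside 1.45%) among 33.

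MT-ND3, MT-ND4L and MT-CO1 fell (23.1% of their list, beside 1.45% of all genes). Of the 13 mitochondrially encoded mRNAs, 11 were lower in both batches (84.6%, beside 37.3% of all genes). Their summed share was 13.9% and 10.8% in controls and 12.6% and 8.10% after knockdown. The nuclear libraries held 36.5% to 42.5%, and the part of fraction purity in this difference or in the other changes was not tested. Among the lists of ribosomal protein, decay, nonsense-mediated decay, export and spliceosome genes, 0% to 2.78% of genes passed in a direction. These shares were near those over all genes (1.49% higher and 1.45% lower). Of 78 ribosomal protein genes 1 rose and 1 fell (median 0.02), of 42 decay factors 1 fell (CNOT1, the scaffold of the deadenylase complex, from 86.9 and 67.8 to 53.9 and 46.3 TPM), and of 16 nonsense-mediated decay factors 0 passed. Of 36 export and exon junction genes CASC3 fell, and of 54 spliceosome genes BUD31 fell. Lower in both batches were 26.9% of ribosomal protein genes, 42.9% of decay factors and 31.25% of nonsense-mediated decay factors. For export and spliceosome genes the shares were 50% and 48.1%, beside 37.3% of all genes. In limma without a batch term these lists had 2, 2, 1, 1 and 3 genes at an unadjusted p of 0.05, respectively. Translation initiation and elongation factors had a larger share: of 45, 2 fell (4.44%, beside 1.45% of all genes) and 0 rose. Lower in both batches were 53.3% of them (beside 37.3%), and 5 were lower at that unadjusted p.

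**Figure D4:**
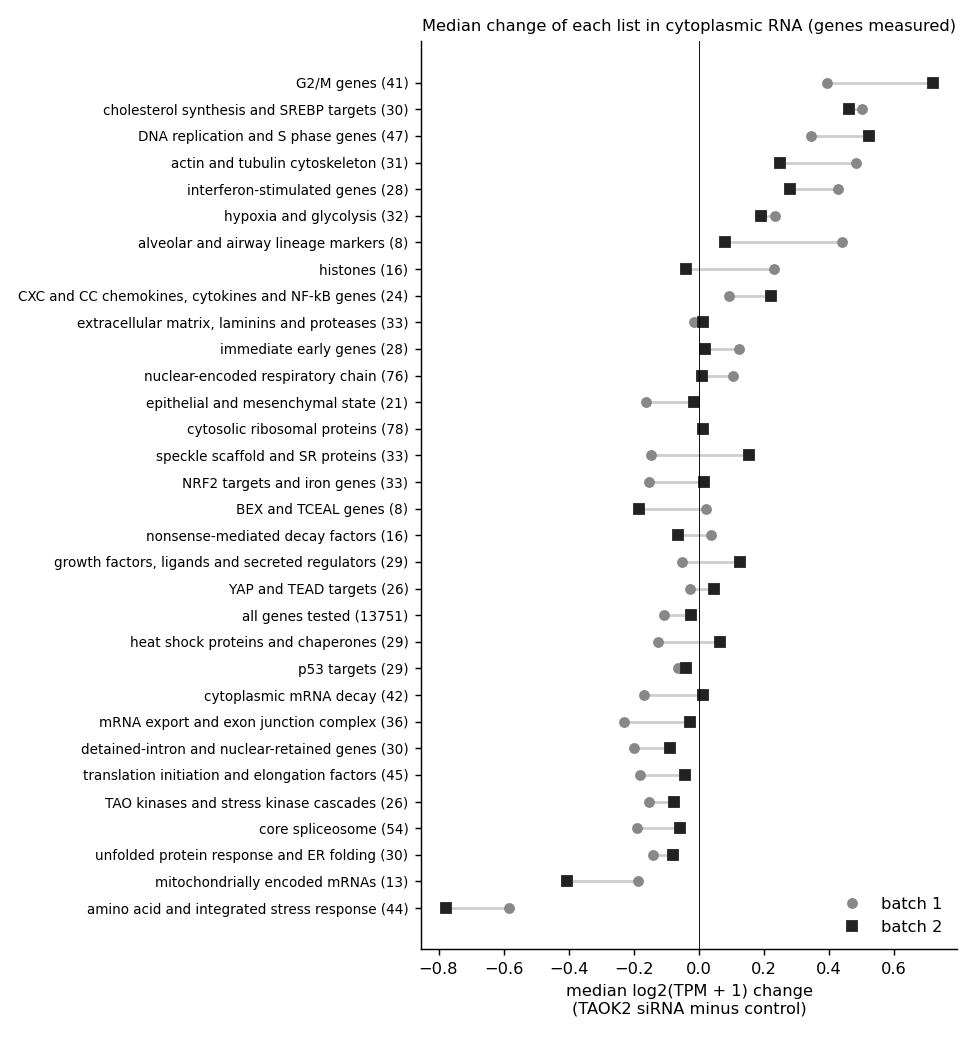
Median change in log2(TPM + 1), TAOK2 siRNA minus control siRNA, of each list with at least 8 measured genes in batch 1 (circles) and batch 2 (squares) of cytoplasmic RNA, with the number of measured genes in brackets. The amino acid and integrated stress response list lies lowest at -0.58 and -0.78, and the G2/M list highest in batch 2 at 0.72.

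The knockdown effect in cytoplasmic RNA was then compared with that in nuclear and total RNA of the same batches. The difference between cytoplasmic and nuclear effects passed for 0 genes in limma without a batch term (184 at an unadjusted p of 0.05) and for 0 with batch as a block (787, smallest adjusted p 0.425). For cytoplasmic against total RNA the counts were 0 (57) and 0 (301, smallest adjusted p 0.0668). By itself, nuclear RNA passed 381 genes higher (2.77%) and 430 lower (3.13%) with batch as a block, and total RNA 228 (1.66%) and 111 (0.807%). Of the 205 genes that rose in the cytoplasm, 199 were also higher in nuclear and 203 in total RNA, and of the 199 that fell, 192 and 190 were lower there. Among all 13751 genes, 5974 were higher and 7776 lower in nuclear RNA, and 6708 and 7043 in total RNA. The fractions share batch numbers, so this is no independent replication. ASNS changed by -1.60 in cytoplasmic, -1.10 in nuclear and -1.27 in total RNA, and FGFBP1 by 1.98, 1.73 and 1.56. CANX, a chaperone of the endoplasmic reticulum that rose in the cytoplasm (45.5 and 42.8 against 144 and 74.4 TPM), changed by 0.20 and 0.05 in nuclear and total RNA. The median of the stress response list was -0.71, -0.43 and -0.55 in the 3 kinds of RNA.

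The whole-cell experiment, tested in its own table, gave other values for several groups. Of 13106 genes tested there without a batch term, 1020 passed higher (7.78%) and 1885 lower (14.4%). Of the 186 cytoplasmic risers measured in it, 110 were higher and 76 lower in whole cells, and of 176 fallers, 139 were lower and 37 higher. Among all 12429 genes tested in cytoplasmic RNA and measured there, 5314 were higher and 7115 lower. EMP1 (1.62), STC1 (2.16), TRIM29 (1.30) and OAS1 (1.23) passed there in the same direction, and so did BEX2 (-0.72), DDIT3 (-0.67) and AARS1 (-0.54). FGFBP1 (0.41), CXCL8 (0.68) and ASNS (-0.21) did not pass. Nor did the other chemokine-list risers, at 0.51 for CCL2, 0.04 for CXCL1, -0.09 for CXCL5, -0.19 for CXCL2, -0.28 for CXCL3 and -0.13 for NFKBIA. Of the 24 members of that list 18 were lower and 6 higher in whole cells, 1 passed higher and 4 lower, and the median was -0.18. The stress response list kept a median below 0 (-0.21, with 1 of 44 passing higher and 15 lower). G2/M genes, which were higher in the cytoplasm, had a median of -0.32 in whole cells, with 0 of 41 passing higher and 20 lower, and replication genes one of -0.22, with 1 of 47 passing higher and 19 lower. The difference between the experiments was not tested, because their tables are separate.

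**Figure D5:**
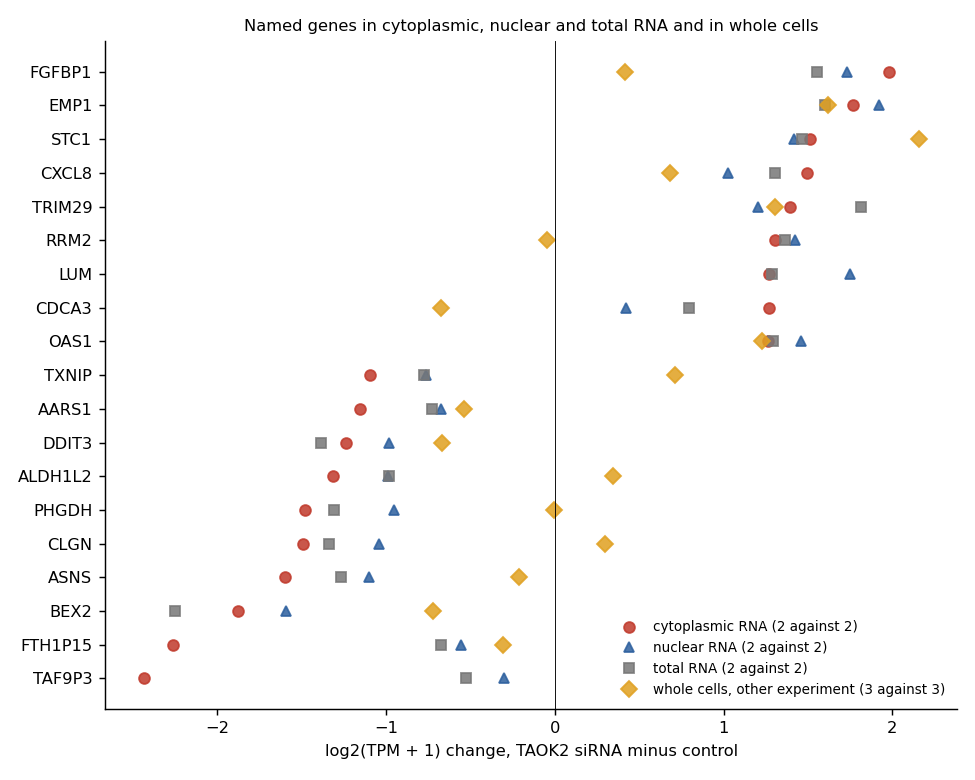
Mean change in log2(TPM + 1), TAOK2 siRNA minus control siRNA, of named genes that passed in cytoplasmic RNA (circles), with the values in nuclear RNA (triangles), total RNA (squares) and whole cells of the other experiment (diamonds). Symbols of the fractions lie on the same side of 0 for every gene shown, and those of whole cells lie on the other side for CDCA3, RRM2, TXNIP, ALDH1L2 and CLGN; LUM and TAF9P3 have no whole-cell value.

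Transcripts gave fewer calls than genes. Of 44109 transcripts averaging 1 TPM or more, limma without a batch term passed 0 (2319 at an unadjusted p of 0.05), and with batch as a block 29 rose (0.0657%) and 18 fell (0.0408%). They included protein-coding transcripts of FGFBP1, STC1, CXCL1 and CXCL8, which rose, and of TXNIP, which fell. ENST00000450214 of RAP1B, a small GTPase gene, held 1.72 and 1.93 TPM in controls and 13.5 and 10.1 after knockdown. In batches 1 and 2 it changed by 0.12 and -0.53 in nuclear RNA and by 0.13 and 0.05 in total RNA. ENST00000481073, a retained-intron transcript of the nuclear exporter gene XPO1, went from 13.0 and 16.9 to 0 and 1.71 TPM in the cytoplasm. Its changes in batches 1 and 2 were 0.46 and 0.05 in nuclear RNA and -0.25 and 0.52 in total RNA. The count moved by over 1.5 times under most settings (0 without either control library, 18 and 1752 without the TAOK2 siRNA library of batch 1 or 2), and read assignment among overlapping transcripts is uncertain.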

How the data were processed

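The deposited values are TPM per transcript, which the authors estimated with kallisto, per the submitters' processing notes, where the build listed is GRCh38.p14. No kallisto version is stated in the sources used here. Libraries were polyA-selected, paired-end and from RNA of RIN above 6.0, per the labels' protocols. Transcript TPM were summed per gene, log2(TPM + 1) values of genes averaging 1 TPM or more across 12 fractionation libraries were fitted with limma 3.58.1 (statmod 1.5.0, R 4.3.3; group means, trend and robust moderation), and p-values were adjusted over all genes by Benjamini-Hochberg at 0.05. The fit without a batch term was tested on simulated data with independent noise and no batch effect. The fit with batch as a block, which rose and fell refer to, was not tested in this way. Errors are moderated SEs. Tables and plots used Python 3.11.15, pandas 2.3.3 and matplotlib 3.10.9.

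The labels give each library a batch, 1 or 2, so batch pairs the libraries across groups. Deviations from the group means correlated between libraries of the same batch at 0.531 to 0.837 (0.834 for the cytoplasmic pair). The design has no batch term, and the fit with batch as a block is an alternative to it. Genes are named if they are among the 12 per direction with the largest smaller-of-2 batch change at a mean of at least 5 TPM, filled without the adjusted p where too few pass, or among 4 per list with the smallest adjusted p, plus the 3 TAO kinases, FGFBP1, CXCL8, BEX2 and ASNS. Others are named as list members or to account for counts, after their values were seen. The members and lists were chosen with earlier results of these data known. Alternatives were other filters, a pseudocount of 0.1, median-centring, the compared libraries alone, plain moderation and leaving out each library. The fits with batch as a block under these settings were added after seeing the data. Some list members are not reported here.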

Additional observations from a re-analysis of the deposited data

Results flagged for a closer look

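For 13 named genes that passed in cytoplasmic RNA with batch as a block, the change had one sign in both cytoplasmic batches and the opposite sign in every whole-cell batch; the difference was not tested. Among cell division genes, log2 changes in cytoplasmic RNA and whole cells were 1.27 and -0.68 for CDCA3, 1.04 and -0.46 for BIRC5, 0.91 and -0.34 for UBE2C, 0.84 and -0.37 for FOXM1, and 0.87 and -0.12 for AURKB. Replication genes gave 0.77 and -0.37 for FEN1, 0.77 and -1.14 for GINS2, and 0.74 and -0.26 for ORC1. The tubulin gene TUBA1B gave 0.92 and -0.28, the ribosomal protein gene RPS26 0.51 and -0.34, and the chaperone gene HSPA14 0.59 and -0.18. CLGN and ALDH1L2 were lower in cytoplasmic RNA and higher in whole cells, at -1.49 and 0.30 and at -1.31 and 0.34. Groups of 2 or 3 libraries allow no test for a single outlying library.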

How the results depend on the processing

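The count of genes that passed in cytoplasmic RNA was 0 without a batch term, 3 with no filter, 5 with a filter of 5 TPM, 1 with a pseudocount of 0.1, 0 to 1 when a library was left out, and 404 with batch as a replicate block. With the block it was 126 with no filter, 711 with the compared libraries alone, and 7 to 1464 when a library was left out (26 without control 1, 7 without control 2). Median-centring gave 298 higher and 194 lower genes. The cytoplasmic minus nuclear difference passed for 10 genes with no filter (8 with the block) and for 0 to 1 (0 to 2) when a library was left out. The cytoplasmic minus total difference passed for 3 genes with no filter, 1 with the block and a filter of 5 TPM, and 0 to 1 (0 to 5 with the block) when a library was left out. Transcript counts were 0, then 18 with no filter, 3 with a pseudocount of 0.1, 47 with the block and 0 to 139 when a library was left out. With the block they became 7 with no filter, 143 with a filter of 5 TPM, 99 with a pseudocount of 0.1, 5 after median-centring, 0 with the compared libraries alone, 0 with plain moderation, and 0 to 1752 when a library was left out. Signs reversed only when a library was left out, among genes that had not passed: PCGF2 ranged from -0.014 to 2.66, PPDPF from -0.71 to 3.16, SUGT1P4 from -2.77 to 0.29, UPF1 from -0.16 to 0.71 and CD68 from -0.018 to 1.21, and TAOK1 from -0.51 to 0.17 (-0.46 to 0.12 with the block), BEX3 from -0.12 to 0.54 (-0.087 to 0.50) and SMG6 from -0.55 to 0.11 (-0.59 to 0.15). Genes that passed already had the same sign in both batches, so that they kept it was largely fixed in advance. Of the 67 named genes that passed with the block, 61 still passed with the compared libraries alone, 65 after median-centring, 66 with a pseudocount of 0.1, 56 with plain moderation and 31 with no filter. Without the control library of batch 1 or batch 2, 15 and 5 did, and without the TAOK2 siRNA library of batch 1 or batch 2, 46 and 63. The causes were not tested. Where a fit left a group with 1 library, that library was assumed to vary like the other groups. TPM keep no read counts, so limits set by depth could not be computed.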
